A study of Mus musculus with 9 samples.

Results

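The data described here are the transcriptomes of 3T3-L1 cells given oleic acid together with the liver X receptor (LXR) agonist T0901317, set against those of cells given vehicle. Of the 9 libraries of the series, 6 enter this comparison, and its members are the 15002 genes of 28965 whose mean over all 9 libraries was at least 10 normalised counts. 3T3-L1 is an established mouse line of adipocyte precursors, labelled as fibroblasts of wild-type genotype, and all cells had been grown to confluence. All groups received the same adipogenic cocktail for 24 h, with insulin at 0.1 µg/mL, isobutylmethylxanthine, a phosphodiesterase inhibitor, at 30 µg/mL and dexamethasone, a glucocorticoid, at 0.1 µg/mL. The vehicle group (MDI, 3 libraries) had albumin alone, and the combination group (OA_T0, 3 libraries) had 100 µM oleic acid carried on albumin plus 5 µM T0901317. A group with oleic acid but no agonist (OA, 3 libraries) gives a further level for each gene. No group had T0901317 without oleic acid, so the effect of the agonist on its own was not measured. The labels do not say whether the libraries of a group came from separate cultures, and p-values then measure only the spread between these libraries, which may be technical.

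LXRs are nuclear receptors that bind oxidised sterols and, with their partner RXR, switch on genes of cholesterol export and of fatty acid synthesis. Genes of cholesterol synthesis and uptake are driven instead by SREBP-2, a transcription factor released from the endoplasmic reticulum when membrane sterols are low. Long-chain fatty acids such as oleic acid are ligands of the PPAR receptors, whose targets include genes of fatty acid oxidation and storage and, through PPARγ, of the adipocyte programme that the cocktail starts.

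Estimated depth was 25.6 to 59.9 M fragments in the MDI libraries and 18.0 to 29.3 M in the OA_T0 libraries, with the deepest being MDI replicate 1 and the shallowest OA_T0 replicate 3. A floor of detection of 3 fragments, which covers counting error only, lay between 1.35 and 4.62 normalised counts. A ribosomal RNA gene model, CT010467.1, took 4.40% to 5.25% of the values in MDI, 5.27% and 5.96% in OA_T0 replicates 1 and 2, 3.06% in OA_T0 replicate 3 and 0.649% in OA replicate 1. Log values correlated across genes at 0.990 to 0.994 within MDI, 0.986 to 0.992 within OA_T0 and 0.986 to 0.989 between them, and genes are not independent replicates. All 8 markers of fibroblasts and adipocyte precursors lay above the floor in every library, with summed levels of 241019 to 256293 in MDI and 219517 to 250414 in OA_T0. None of the 4 markers of mature adipocytes that were found (Adipoq, Cfd, Plin1 and Retn) lay above the floor in every library, with summed levels of 1.09 to 10.8 in MDI and 4.14 to 8.04 in OA_T0. Defining genes of endothelium (Tie1), macrophages (Adgre1), muscle (Myog and Ckm), Schwann cells (Sox10) and neurons (Rbfox3) were listed at 0 in all 9 libraries.

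The comparison asks what the combined treatment does, on balance, to cells in the cocktail. Most genes of cholesterol synthesis and the LXR targets Abca1, Mylip and Lpcat3 rose. Most of the interferon-stimulated genes fell, though the number of interferon calls depended on the libraries and settings used. PPAR targets and genes of fatty acid oxidation had a median log2 difference of 0.06, and 1 of 25 passed, near the share over all tested genes. At an adjusted p below 0.05, 392 of the 15002 genes passed, which is 2.61%, with 188 higher (1.25%) and 204 lower (1.36%). The falls were the larger changes: 72 of the lower genes and 23 of the higher ones moved by at least 2-fold, and the median log2 difference was -0.65 among the lower and 0.40 among the higher genes, against 0.02 over all tested genes. In 390 of the 392 the libraries of the groups did not overlap, while such separation occurred in 3523 of all tested genes (23.5%), 1996 of them higher (13.3%) and 1527 lower (10.2%). The numbers of calls rested on single libraries: they fell to 68 higher and 61 lower when MDI replicate 1 was dropped, to 70 and 52 for MDI replicate 2 and to 66 and 44 for OA_T0 replicate 1, and 284 were higher when MDI replicate 3 was dropped. Of the 392 genes, 99 passed whichever of the 9 libraries was left out, 61 of them higher and 38 lower.

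**Figure D1:**
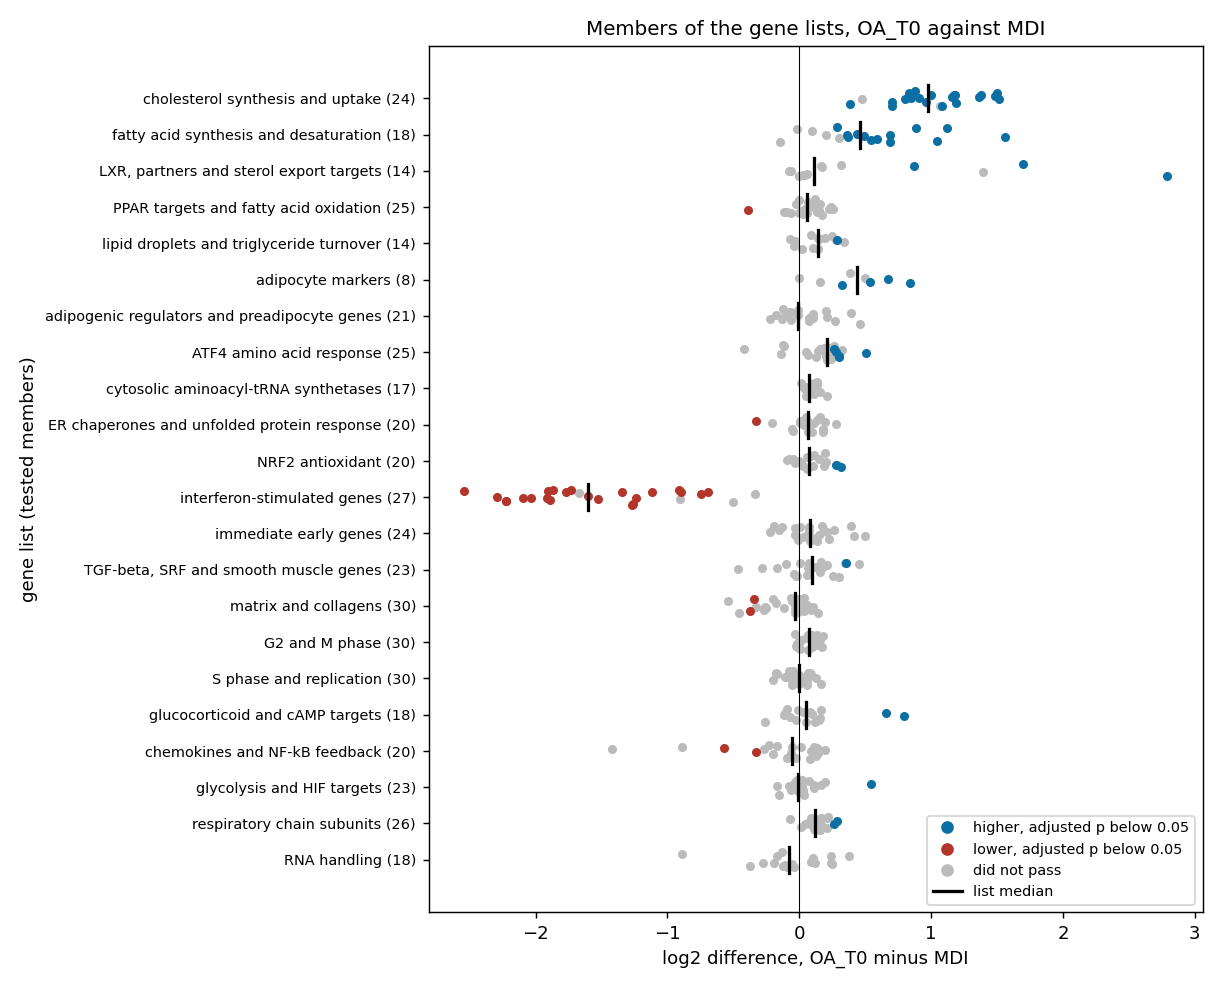
Log2 difference between OA_T0 and MDI (x axis) for each tested member of the gene lists (y axis, tested members in parentheses). Blue points are genes that passed higher, red points genes that passed lower, grey points the rest, and the black bar is the list's median. The cholesterol list is centred at 0.98 with 22 of 24 members passing higher, and the interferon list at -1.60 with 23 of 27 passing lower.

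Of 14 tested genes of LXR, its partners and sterol export, 3 passed, all higher: Abca1, Mylip and Lpcat3 (1.25% of all tested genes passed higher). The list's median log2 difference was 0.11, against 0.02 over all tested genes, and the other 11 members did not pass. Abca1, the transporter that moves cholesterol out of the cell, measured 1182, 1029 and 973 normalised counts in the MDI libraries, 1186, 1119 and 999.5 in OA and 7137, 7783 and 7104 in OA_T0. Every OA_T0 library stood far above all 6 others, and the OA libraries overlapped MDI. The log2 difference between OA_T0 and MDI was 2.79 (SE 0.08, adjusted p = 1.25e-11), a 6.93-fold rise and the largest of any tested gene. Mylip, a ubiquitin ligase that LXR induces, measured 390.2, 449 and 430.4 in MDI and 1346, 1514 and 1273 in OA_T0, a log2 difference of 1.70 (SE 0.09, adjusted p = 3.46e-08). Its OA libraries, at 400.4, 444 and 446, overlapped MDI, as those of Abca1 did.

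Lpcat3, which inserts polyunsaturated fatty acids into phospholipids, measured 1389, 1504 and 1599 in MDI, 2407, 2406 and 2644 in OA and 2774, 2818 and 2622 in OA_T0. It was higher than vehicle in both treated groups, with log2 differences of 0.87 (SE 0.07, adjusted p = 1.87e-06) for OA_T0 and 0.73 (adjusted p = 5.93e-06) for OA, and the OA and OA_T0 libraries overlapped. These contrasts share the MDI libraries. Abcg1, another cholesterol exporter, was scarce, at 9.45, 2.18 and 9.01 in MDI and 24.8, 10.1 and 20.0 in OA_T0. Its groups did not overlap, but with values this low the log2 difference of 1.39 did not pass (adjusted p = 0.222, interval 0.15 to 2.64). The receptors themselves gave small differences: Nr1h2, LXRβ, stood at 774, 829 and 871 in MDI and 872, 898 and 761 in OA_T0, and Nr1h3, LXRα, at 35.1, 40.3 and 45.1 and 65.2, 59.3 and 32.4 (adjusted p = 0.877 and 0.524). Apoe, Pltp, Rxra, Rxrb and Arl4c did not pass either, the widest difference among them being 0.17 in Apoe, and Smpdl3a, Apoc1 and Mlxipl lay below the filter of 10.

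The promoter stretch of Abca1 is shown because the gene had the largest rise. LXR with RXR binds a direct repeat of AGGTCA with 4 bases between the copies. The stretch comes from the RefSeq promoter table of build GRCm38.p6 and lies at chr4:53159900-53160009 on the minus strand, with the repeat in capitals as its reverse complement.

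Abca1: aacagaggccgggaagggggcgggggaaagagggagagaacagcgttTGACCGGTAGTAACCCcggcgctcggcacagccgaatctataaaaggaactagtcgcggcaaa

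With up to 2 mismatches over both copies, on either strand, none of the 18 windows of 300 bases for 12 list genes held the repeat, against 3.02% of all 32851 RefSeq windows. The capitals mark a match with 3 mismatches, a looser limit added after this was seen, which 3 of the 18 windows (16.7%) and 21.9% of all windows met. The share was therefore no higher in the list than among all windows, and the absence of a closer match says only that these letters are not in these windows.

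**Figure D2:**
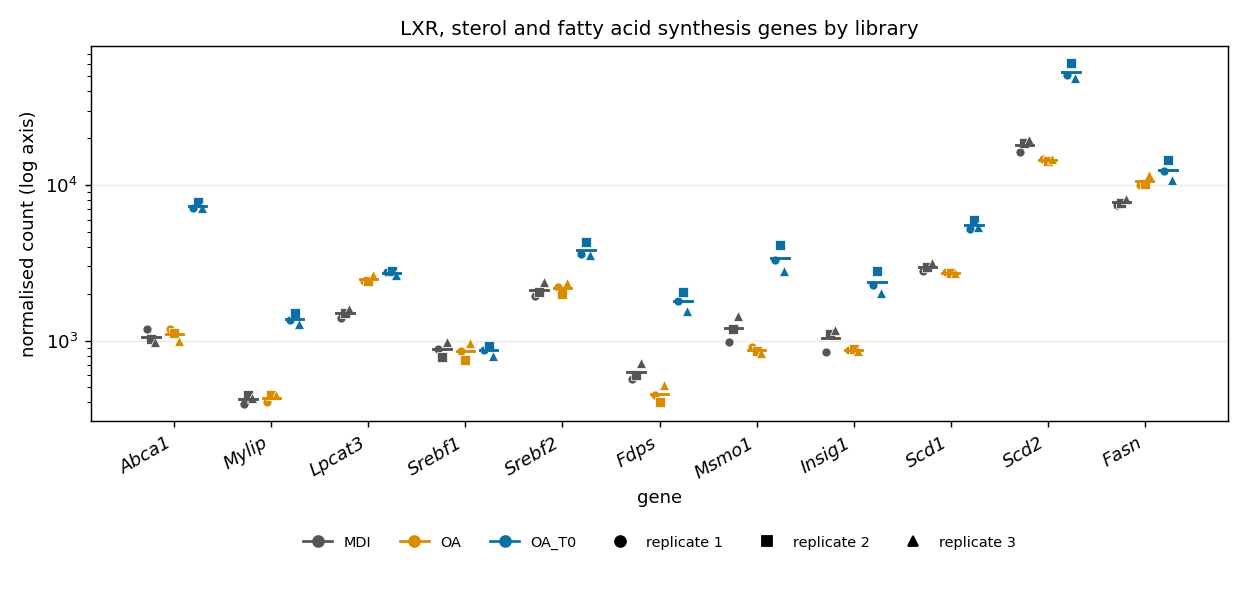
Normalised counts (log y axis) of LXR, sterol and fatty acid synthesis genes (x axis) in each library, with the group mean as a bar; colours are the groups and symbols the replicates. For Abca1 the OA_T0 libraries lie between 7104 and 7783 and all other libraries at 1186 or less, while Srebf1 overlaps between the groups.

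Genes of cholesterol synthesis and uptake rose nearly as a whole: 22 of 24 tested members passed, all higher, and all 24 were separated from MDI without overlap (the background shares are 1.25% and 13.3%). The list's median log2 difference was 0.98, against 0.02 over all tested genes, and 10 members rose at least 2-fold. Its median in OA against MDI was -0.09. Fdps, which makes farnesyl diphosphate, measured 563, 602 and 714 in MDI, 444, 403 and 518 in OA and 1792, 2045 and 1551 in OA_T0. Each OA_T0 library exceeded the highest MDI library by more than the whole range of the MDI values, and OA lay below MDI. The rise was 2.86-fold (log2 difference 1.52 (SE 0.11, adjusted p = 1.87e-06)).

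The rises were spread along the pathway. Among the isoprenoid steps, Idi1, an isomerase, rose by a log2 difference of 1.49, and Mvd, a decarboxylase, by 1.36. Squalene and lanosterol steps followed, with Fdft1, squalene synthase, at 1.16, Sqle, squalene epoxidase, at 1.17 and Cyp51, lanosterol demethylase, at 1.08. Late sterol steps included Msmo1, a methylsterol oxidase, which rose from 982, 1183 and 1429 to 3283, 4088 and 2804. In Msmo1 the lowest OA_T0 library stood well above the highest MDI library. The smallest difference among passing members was in Ebp, a sterol isomerase, at 0.38 (adjusted p = 0.0287).

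Regulators of the pathway also rose. Srebf2, which encodes SREBP-2, measured 1921, 2044 and 2387 in MDI, 2202, 1988 and 2335 in OA and 3599.6, 4285 and 3528 in OA_T0, and only the OA_T0 libraries stood apart (log2 difference 0.85 (SE 0.09, adjusted p = 5.97e-05)). Insig1, which retains SREBPs in the endoplasmic reticulum, rose by a log2 difference of 1.19 (SE 0.12, adjusted p = 2.64e-05). Pmvk and Tm7sf2 did not pass, at 0.48 (adjusted p = 0.0604) and 1.07 (adjusted p = 0.0927). Within the groups, the OA_T0 replicate 2 library was highest of its group in 24 of 24 members and MDI replicate 3 in 22 of 24. Leaving out any 1 library left 20 to 24 members higher, with medians of 0.84 to 1.08.

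The promoter of Hmgcs1, which makes HMG-CoA, is shown because it alone among the list's genes in the RefSeq table held the sterol element searched, TCACNCCAC on either strand. The stretch lies at chr13:119690163-119690272 on the plus strand of GRCm38.p6, with the element in capitals.

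Hmgcs1: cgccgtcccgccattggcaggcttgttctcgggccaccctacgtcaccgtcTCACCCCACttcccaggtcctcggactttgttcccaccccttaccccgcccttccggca

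Hmgcs1 rose from 1817, 2365 and 2412 in MDI to 4011, 5417 and 3522 in OA_T0 (log2 difference 0.96 (SE 0.13, adjusted p = 0.000607)). The element stood in 1 of 20 windows for 17 list genes (5.00%), in none of 19 windows for 15 genes of the fatty acid list below, and in 1.24% of all windows. Most genes that rose therefore lacked these exact letters in the 300 bases searched, and a match is a description of sequence, not of binding.

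Fatty acid synthesis and desaturation rose more unevenly, with 13 of 18 tested members passing, all higher, where 1.25% of all tested genes did. The list's median log2 difference was 0.46. Scd2, a stearoyl-CoA desaturase that makes oleic acid from stearic acid, measured 16174, 18658 and 19467 in MDI, 14596, 14192 and 14591 in OA and 51273, 60830.4 and 48472 in OA_T0. The OA_T0 values were the highest and the OA values the lowest, with no overlap between any of the groups. The rise over MDI was 2.95-fold (log2 difference 1.56 (SE 0.09, adjusted p = 6.56e-08)). Its near relative Scd1 measured 2815, 2985 and 3150.2 in MDI and 5240.4, 5999.6 and 5342 in OA_T0 (log2 difference 0.89 (SE 0.06, adjusted p = 1.11e-06)), and reads shared between such paralogs cannot be assigned with certainty here.

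Further along, Acsl3, which activates long-chain fatty acids, rose 2.17-fold and Fads2, the delta-6 desaturase, 2.06-fold. Fasn, fatty acid synthase, measured 7427, 7624 and 8161 in MDI, 10004, 10142 and 11529 in OA and 12264, 14569 and 10787 in OA_T0. It was above vehicle in both treated groups without overlap, by log2 differences of 0.69 (SE 0.09, adjusted p = 0.000583) in OA_T0 and 0.45 (adjusted p = 0.00793) in OA, which share the MDI libraries. Acaca, the first enzyme committed to fatty acid synthesis, rose by 0.69 and Acly, which supplies its acetyl-CoA, by 0.36. Srebf1, which encodes SREBP-1 and is a textbook LXR target, measured 881, 781 and 985 in MDI and 875, 927 and 801 in OA_T0. Its groups overlapped and the log2 difference was -0.02 (adjusted p = 0.939, interval -0.24 to 0.20), in values that do not separate its isoforms. Elovl1, Acss2, Me1 and Acacb did not pass either, at 0.20, 0.30, 0.10 and -0.14, and Thrsp and Pnpla3 lay below the filter. Leaving out 1 library left 11 to 13 members higher, and 6 passed with no intensity trend.

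PPAR targets and genes of fatty acid oxidation stood near the vehicle level in OA_T0, although the labels give this group the same oleic acid as OA. These values hold no measure of the oleic acid itself, so its presence in the OA_T0 cultures was not checked. Of 25 tested members 1 passed, Cpt1a, which was lower, against 2.61% of all genes in either direction. The median log2 difference from MDI was 0.06. In OA against MDI, 18 members were higher and 1 lower at a median of 0.46, where 6.79% of all genes passed. In OA_T0 against OA, 1 was higher and 17 lower at a median of -0.33, where 15.1% of all genes passed. These contrasts share the OA libraries, so they are not independent. In 20 of the 25 genes all 3 OA libraries lay above all 6 others, which was so in 7.13% of all tested genes.

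Angptl4, a secreted inhibitor of lipoprotein lipase, measured 986, 925 and 1131 in MDI, 12196, 11032 and 13647 in OA and 909, 996 and 941 in OA_T0. The OA libraries stood apart by an order of magnitude, and MDI and OA_T0 overlapped. Between OA_T0 and MDI the log2 difference was -0.09 (adjusted p = 0.594, interval -0.27 to 0.09). Pdk4, a kinase that restrains glucose oxidation, measured 1795, 1941 and 1915 in MDI, 4386, 4251 and 4172 in OA and 1864, 1892 and 1994 in OA_T0, with a log2 difference from MDI of 0.03 (interval -0.09 to 0.15). Cpt1a, the gate for fatty acid entry into mitochondria, measured 1258, 1245 and 1459 in MDI, 6098, 5829.7 and 6050.2 in OA and 919, 1033 and 1080.1 in OA_T0. Its OA_T0 libraries lay below all the others, and the log2 difference from MDI was -0.39 (SE 0.07, adjusted p = 0.0117). This fall did not pass without OA_T0 replicate 1 (adjusted p = 0.103), with no filter (0.0826) or with no intensity trend (0.117).

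Enzymes of the oxidation cycle were likewise highest in OA. Acaa2, a mitochondrial thiolase, averaged 903 ± 72.8 in MDI, 2225 ± 142 in OA and 910.0 ± 80.0 in OA_T0 (SD, n = 3). Acadl, an acyl-CoA dehydrogenase, measured 1455, 1557 and 1546 in MDI, 3012, 2913 and 3082 in OA and 1595, 1576 and 1573 in OA_T0. Its OA_T0 libraries lay just above the MDI libraries without overlap, but the log2 difference of 0.06 did not pass (adjusted p = 0.604). Ucp2, a mitochondrial carrier, averaged 1381 ± 83.3 in MDI, 3209 ± 331 in OA and 1325 ± 54.7 in OA_T0. The largest positive difference from MDI was in Acot2, a thioesterase, at 0.26 (adjusted p = 0.221).

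Lipid droplet genes gave 1 passing member of 14, which was higher, where 1.25% of all tested genes passed higher. It was Gpam, the first enzyme of glycerolipid synthesis, at 1215, 1183 and 1129 against 972, 958 and 961 in MDI. Its OA libraries lay below MDI at 906, 908 and 909. The rise was small (log2 difference 0.29 (SE 0.06, adjusted p = 0.0208)) and did not pass without MDI replicate 1, MDI replicate 2, OA_T0 replicate 1 or OA_T0 replicate 2. Plin2, the droplet coat protein that is degraded when lipid is scarce, measured 1268, 1452 and 1569 in MDI, 5833, 5206 and 5981 in OA and 1350.2, 1406 and 1404 in OA_T0, so that MDI and OA_T0 overlapped (log2 difference -0.04, interval -0.20 to 0.12). Plin1, Plin5, Cidea, Cidec, Mgll and G0s2, most of them genes of mature fat cells, lay below the filter.

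**Figure D3:**
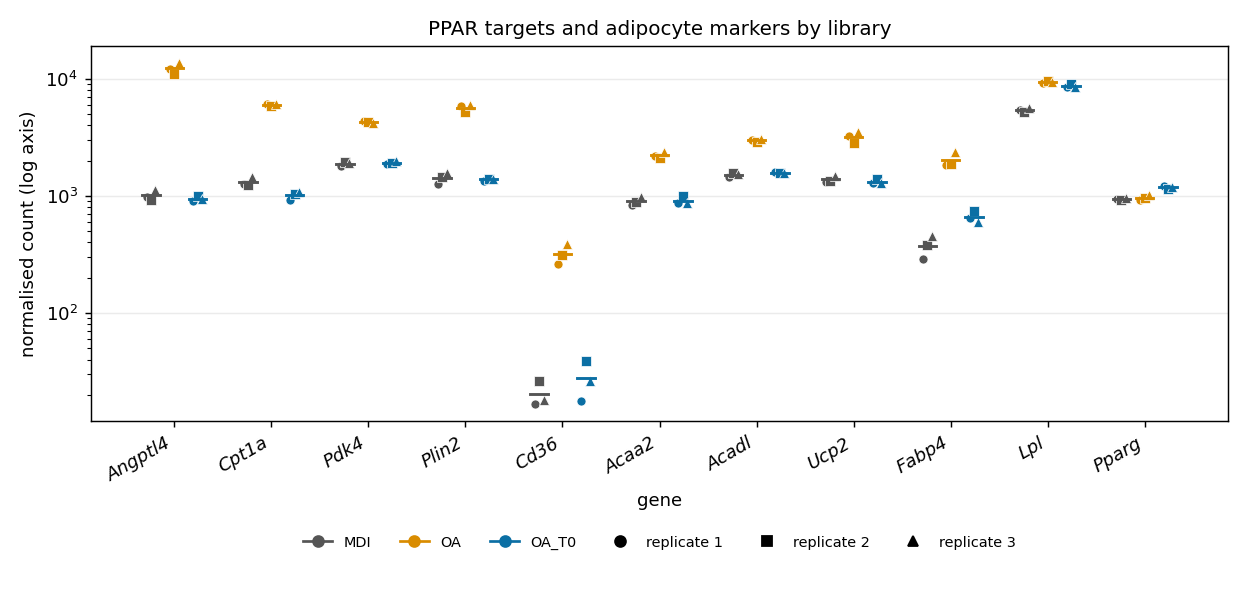
Normalised counts (log y axis) of PPAR targets and adipocyte markers (x axis) in each library, with the group mean as a bar; colours are the groups and symbols the replicates. For Angptl4 the OA libraries lie between 11032 and 13647 and both other groups at 1131 or less, while for Lpl the OA and OA_T0 libraries both lie above MDI.

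Among adipocyte markers 4 of 8 tested members passed, all higher: Fabp4, Lpl, Fabp5 and Pparg, with a list median of 0.44. Over all tested genes 1.25% passed higher. Of the 16 listed markers, Adipoq, Cfd, Retn, Slc2a4 and Aqp7 lay below the filter, and Lep, Pck1 and Adig were not found. The passing members therefore do not speak for these markers of mature fat cells. In bulk samples a smaller number of cells of a type and less RNA per cell cannot be told apart, and the same holds for rises. Fabp4, a fatty acid carrier, measured 289, 381 and 452 in MDI, 1825, 1862 and 2383 in OA and 647, 740.0 and 596 in OA_T0. The groups did not overlap, with OA_T0 between the others (log2 difference from MDI 0.84 (SE 0.14, adjusted p = 0.00412)). Lpl, lipoprotein lipase, measured 5409, 5234 and 5628 in MDI, 9155, 9512 and 9405 in OA and 8565, 8949 and 8439 in OA_T0. Here OA_T0 stood close to OA, at a log2 difference of 0.67 (SE 0.05, adjusted p = 3.18e-06) from MDI and -0.11 from OA (adjusted p = 0.167).

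Pparg, the master regulator of fat cell formation, measured 949.6, 930.2 and 954 in MDI, 927, 953 and 1014 in OA and 1217, 1143 and 1194 in OA_T0. It was raised in OA_T0 alone of the treated groups (log2 difference from MDI 0.33 (SE 0.06, adjusted p = 0.0127), and from OA 0.30, adjusted p = 0.00558). Cd36, a fatty acid transporter, was at 16.7, 26.1 and 18.0 in MDI, 263, 309.9 and 391 in OA and 17.6, 39.2 and 26.2 in OA_T0, with no pass against MDI (adjusted p = 0.476). Cebpa, a later regulator of the programme, overlapped between the groups at 331, 325 and 491 and 383, 560.0 and 344 (adjusted p = 0.659). The passing members numbered 2 without MDI replicate 1, MDI replicate 2 or OA_T0 replicate 1, where Fabp5 and Pparg were lost. Lpl and Pparg passed with no filter, and Lpl alone with no intensity trend. Of 21 adipogenic regulators and preadipocyte genes limma called 0, with 5 higher and 1 lower at an unadjusted p below 0.05 and 0 by voom. At that unadjusted level 1596 of all 15002 tested genes were higher and 1180 lower. Cebpd, an early regulator induced by the cocktail, stood at 0.40 (adjusted p = 0.0887) and Ebf2, a transcription factor of the adipocyte lineage, at 0.46 (adjusted p = 0.0858).

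ATF4 and its amino acid response showed small rises over MDI: 5 of 25 tested members passed, all higher, where 1.25% of all tested genes did. The list median was 0.21, and 21 of 25 differences were positive (19 without MDI replicate 3 or OA_T0 replicate 3), against 54.4% of all tested genes. Atf4, the transcription factor of this response, measured 11968, 12381 and 11439 in MDI, 9382, 9128 and 9316 in OA and 15499, 13287 and 15388 in OA_T0. The 3 groups did not overlap, with OA lowest, and the log2 difference from MDI was 0.30 (SE 0.07, adjusted p = 0.0224). Pycr1, an enzyme of proline synthesis, measured 1248, 1369 and 1394 in MDI, 1233, 1189 and 1246 in OA and 2021, 1723 and 1959.8 in OA_T0. Its difference of 0.51 (SE 0.07, adjusted p = 0.00104) was the one in this list that passed whichever library was left out. Asns, asparagine synthetase, at 0.28, Ddit4, an inhibitor of mTORC1 signalling, at 0.30 and Atf5, a related factor, at 0.27 complete the passing members.

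In 19 of the 25 genes all 3 OA libraries lay below all 6 others, against 7.74% of all tested genes. Trib3, a pseudokinase, measured 3234, 3176 and 3133 in MDI, 1749, 1674 and 1669.9 in OA and 3887, 2955 and 4162 in OA_T0. MDI and OA_T0 overlapped, with OA_T0 replicate 2 the lowest of its group (log2 difference 0.19, adjusted p = 0.289). The number of calls varied with the library left out: 12 members passed without OA_T0 replicate 2, 3 without OA_T0 replicate 3, and 1 without MDI replicate 1, MDI replicate 2 or OA_T0 replicate 1. With equal library totals 2 passed, and 1 with no filter or no intensity trend. Of 17 cytosolic aminoacyl-tRNA synthetases, which ATF4 also drives, limma called 0, with 3 higher at an unadjusted p below 0.05 and 0 by voom. At that unadjusted level 1596 of all 15002 tested genes were higher. All 17 differences were positive, from 0.01 to 0.21 on the log2 scale, against 54.4% of all tested genes. Positive differences numbered 15 with equal library totals or without MDI replicate 1, and 14 without OA_T0 replicate 3.

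The promoters of Pycr1 and Asns are shown as the passing members that hold the C/EBP-ATF element, TGATGNAA on either strand, to which ATF4 binds with C/EBP partners. They lie at chr11:120643793-120643902 and chr6:7693210-7693319, both on the minus strand of GRCm38.p6, with the element in capitals.

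Pycr1: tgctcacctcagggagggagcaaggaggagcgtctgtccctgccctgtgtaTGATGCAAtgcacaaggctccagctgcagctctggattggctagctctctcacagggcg

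Asns: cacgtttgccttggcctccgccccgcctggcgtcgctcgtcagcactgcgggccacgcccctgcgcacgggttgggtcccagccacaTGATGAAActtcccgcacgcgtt

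The element stood in 7 of 30 windows for 23 list genes (23.3%), against 3.97% of all windows. Its holders were Asns, Chac1, Nupr1, Pycr1, Slc7a11, Trib3 and Vldlr, of which only Asns and Pycr1 passed.

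Interferon-stimulated genes were the list with the most falls. Of 27 tested members 23 passed, all lower, and 25 were separated without overlap (background shares 1.36% and 10.2%). The median log2 difference was -1.60, all 27 differences were negative, and 19 members fell at least 2-fold. The OA mean lay between those of MDI and OA_T0 in 25 of 27 members, against 29.0% of all tested genes, with a median difference from MDI of -1.05. In OA against MDI 4 members passed lower, where 3.36% of all genes did, and in OA_T0 against OA 1 did, where 6.84% of all genes did. Oas2, an antiviral oligoadenylate synthetase, measured 251, 139 and 126 in MDI, 119, 41.6 and 50.2 in OA and 30.0, 13.1 and 50.8 in OA_T0. All OA_T0 libraries lay below all MDI libraries (log2 difference -2.54 (SE 0.43, adjusted p = 0.00485)), while MDI and OA nearly met.

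Sensors and effectors fell alike. Ifih1, which senses double-stranded RNA, measured 649, 628 and 587 in MDI and 248, 191 and 381 in OA_T0 (log2 difference -1.24 (SE 0.19, adjusted p = 0.00240)), and Gbp2, a guanylate-binding protein, 716, 639.7 and 628 and 266, 183 and 418 (log2 difference -1.27 (SE 0.21, adjusted p = 0.00358)). These were the members that passed whichever library was left out. Ifi44 fell 4.67-fold, the oligoadenylate synthetase genes Oasl2 and Oas1a 4.68-fold and 4.91-fold, and Usp18, a protease that removes ISG15, 4.28-fold. Among genes outside the list, Mx2, a GTPase against viruses, fell 5.39-fold, Ifi47, an immunity-related GTPase, 4.09-fold and Zbp1, a sensor of Z-form nucleic acid, 4.83-fold. Apol9a and Apol9b fell 4.30-fold and 6.10-fold, and Tgtp1 and Tgtp2 5.60-fold and 5.44-fold. Each of these pairs is nearly identical in sequence, so how reads were split within it is uncertain. Rsad2, Bst2, Psmb9 and Ifit2 did not pass, at -1.67, -0.90, -0.50 and -0.34, and Rigi was found under its older name Ddx58, chosen after its value was seen, at -1.02 (adjusted p = 0.00616).

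The size of these falls varied between libraries of a group, and in the same order for nearly every gene. MDI replicate 1 was the highest MDI library in 25 of 27 members, OA replicate 1 the highest OA library in 27 and OA_T0 replicate 3 the highest OA_T0 library in 27. Relative to the MDI mean the list's median was 0.28, -0.01 and -0.26 in the MDI libraries, -0.46, -1.34 and -1.21 in OA and -1.44, -2.56 and -0.57 in OA_T0. The value of OA_T0 replicate 3 thus lay above those of OA replicates 2 and 3. OA replicate 1 and OA_T0 replicate 3 were also the libraries with the lowest share of CT010467.1, at 0.649% and 3.06%, and OA_T0 replicate 3 was the shallowest. MDI did not show the same order. Its highest library, replicate 1, was the deepest at 59.9 M fragments, with a share of 4.45% against 5.25% and 4.40% in MDI replicates 2 and 3. The part of these in the result was not tested. The calls numbered 2 without MDI replicate 1, 4 without MDI replicate 2, 3 without OA_T0 replicate 1, 11 without OA_T0 replicate 2 and 22 to 25 without any other library. They numbered 25 by voom, 3 with robust variance estimates in limma and 0 in limma with no filter or with no intensity trend. In the test reported here 26 members were lower at an unadjusted p below 0.05, as were 1180 of all 15002 tested genes. The median stayed between -2.10 and -1.01 when single libraries were left out. Of leukocyte markers, Adgre1 was listed at 0 in all libraries and Ptprc was at or under the floor, and the summed level of the 5 markers was 34.6 to 46.2 in MDI and 55.5 to 79.8 in OA_T0. Cd68 and Lyz2 gave most of that sum, and neither passed. Cd68 measured 16.2, 19.58 and 15.8 in MDI and 19.66, 38.2 and 30.8 in OA_T0. Its OA_T0 libraries all lay above MDI, the lowest of them only just, and 13.3% of all tested genes were separated higher. Lyz2 overlapped, at 10.8, 17.4 and 21.4 and 29.0, 31.2 and 18.5. Csf1r was not higher in OA_T0, at 7.19, 7.53 and 9.05 and 7.23, 7.44 and 3.08.

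**Figure D4:**
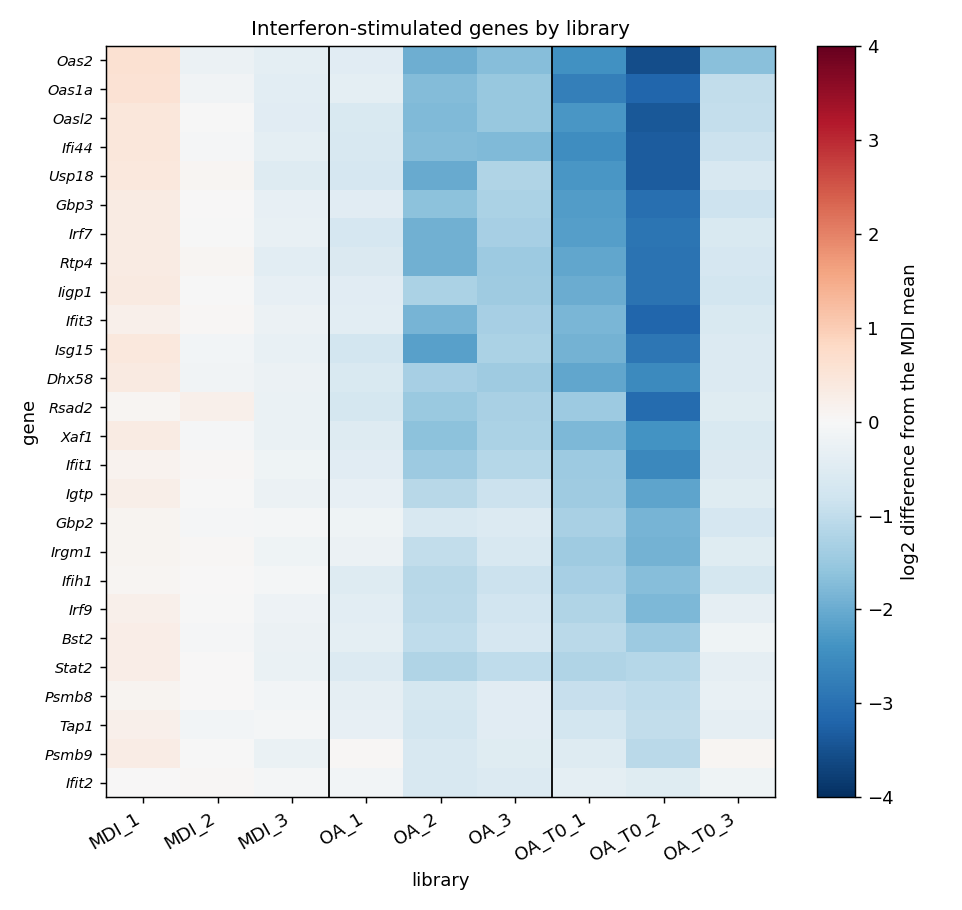
Log2 difference of 26 of the 27 tested interferon-stimulated genes (y axis) from their MDI means in each library (x axis), from blue (lower) to red (higher), with lines between the groups. OA_T0 replicate 3 is the highest of its group and OA replicate 1 the highest of the OA group in all 26 genes drawn.

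The promoters of Ifih1, Gbp2 and Gbp3 are shown as the passing members of smallest adjusted p that hold the interferon element, GAAANNGAA on either strand, a core of the sites bound by interferon-activated transcription factors. They lie at chr2:62646309-62646418 on the minus strand and at chr3:142620553-142620662 and chr3:142559934-142560043 on the plus strand of GRCm38.p6, with the element in capitals as its reverse complement.

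Ifih1: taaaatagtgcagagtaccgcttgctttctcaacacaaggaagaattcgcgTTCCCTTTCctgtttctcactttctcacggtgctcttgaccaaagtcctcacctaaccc

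Gbp2: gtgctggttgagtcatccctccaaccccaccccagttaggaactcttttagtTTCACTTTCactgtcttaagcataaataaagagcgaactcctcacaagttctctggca

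Gbp3: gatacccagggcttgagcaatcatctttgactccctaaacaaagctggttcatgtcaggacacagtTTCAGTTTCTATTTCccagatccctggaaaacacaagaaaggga

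The capitals in Gbp3 cover overlapping matches. The element stood in 13 of 24 windows for 21 list genes (54.2%), against 8.56% of all windows, and in 11 of the 17 passing genes with a window.

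Inflammatory genes gave 2 passing members of 20, both lower, where 1.36% of all tested genes passed lower. C3, complement component 3, measured 3893, 2982 and 3355 in MDI and 2104, 2253 and 2507 in OA_T0 without overlap (log2 difference -0.57 (SE 0.09, adjusted p = 0.00202)). Ccl2, a chemokine that attracts monocytes, measured 1595, 1731 and 1658 in MDI and 1316, 1321 and 1320.4 in OA_T0 (log2 difference -0.33 (SE 0.08, adjusted p = 0.0313)), a fall that did not pass without any 1 of the MDI libraries, OA_T0 replicate 1 or OA_T0 replicate 2. Cxcl10, a chemokine induced by interferon, had a larger difference of -1.42 but a wide spread, at 590.5, 610.3 and 477 in MDI and 301, 80.4 and 367 in OA_T0 (adjusted p = 0.0841).

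Of 18 glucocorticoid and cAMP targets, 2 passed, both higher, where 1.25% of all tested genes did. Both were metallothioneins, which bind zinc. Mt2 measured 2117, 2454 and 2639.7 in MDI, 2457, 2487 and 2898 in OA and 4324, 4261 and 3897 in OA_T0, and its OA_T0 libraries stood above all others (log2 difference 0.80 (SE 0.08, adjusted p = 4.89e-05)). Mt1 rose by 0.66 (SE 0.10, adjusted p = 0.00218). The other 16 members did not pass, among them Fkbp5 at 0.03 (interval -0.09 to 0.15) and Tsc22d3 at -0.01 (interval -0.15 to 0.13), both targets of the glucocorticoid receptor. Differences in the list ran from -0.26 to 0.80, with 5 members separated higher and 2 lower. Over all tested genes 13.3% were separated higher and 10.2% lower.

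Genes of matrix and contraction gave few calls. Over all tested genes 1.25% passed higher and 1.36% lower. Of 30 matrix genes 2 passed, both lower: Col3a1, a fibrillar collagen, at 58066, 61098 and 57428 against 80821, 70351 and 73365 in MDI (log2 difference -0.34 (SE 0.08, adjusted p = 0.0313)), and Col12a1, which coats collagen fibrils, with a difference of -0.37 (SE 0.07, adjusted p = 0.00869). Col3a1 did not pass without any 1 of MDI replicates 1 and 2, OA replicate 1 or the OA_T0 libraries, and Col12a1 not without MDI replicate 2 or OA_T0 replicate 1. The main collagen Col1a1 stood at 0.04 (interval -0.17 to 0.24). Of 23 genes of TGF-beta, SRF and smooth muscle 1 passed, Ccn1, a matricellular protein driven by YAP and SRF, which measured 3623, 4782 and 4277 in MDI, 2628, 2852 and 3012 in OA and 5582, 5296 and 5236 in OA_T0. Its OA_T0 libraries were highest and its OA libraries lowest (log2 difference from MDI 0.35 (SE 0.08, adjusted p = 0.0363)), and it did not pass without MDI replicate 1, OA_T0 replicate 1 or OA_T0 replicate 2. Acta2, smooth muscle actin, showed the same order, at 2995, 4056 and 4029 in MDI, 1988, 1754 and 2076 in OA and 4811, 4611 and 4636 in OA_T0, but did not pass against MDI (log2 difference 0.36, adjusted p = 0.0688). It did pass without MDI replicate 3, where 4 members of the list were higher. With quantile normalisation 3 members of the list passed higher.

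Stress and energy genes gave a few small changes, where 1.25% of all tested genes passed higher and 1.36% lower. Dnajc3, a chaperone of the endoplasmic reticulum, was the 1 passing member of 20, lower at 2766, 2785 and 2653 against 3273, 3528 and 3529.9 in MDI (log2 difference -0.33 (SE 0.06, adjusted p = 0.00439)). Of 20 antioxidant genes of NRF2, 2 passed higher: Tkt, transketolase, at 0.28 and Ftl1, ferritin light chain, at 0.32. Of 26 respiratory chain subunits 2 passed higher, Sdhb of complex II at 0.29 and Uqcrq of complex III at 0.26, and 25 of 26 differences were positive (24 with equal library totals, and 23 with quantile normalisation or without MDI replicate 1) at a median of 0.12, with 13 separated without overlap against 13.3% of all genes. Of 23 glycolysis and HIF genes 1 passed, Adm, a vasodilator peptide, at 0.54. Each of Tkt, Ftl1, Sdhb, Uqcrq and Adm was lost when MDI replicate 1, MDI replicate 2 or OA_T0 replicate 1 was dropped, and each also without 1 or more of the other libraries.

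The cell cycle, immediate early and RNA handling lists gave no calls by limma. As background, 1596 of all 15002 tested genes were higher and 1180 lower at an unadjusted p below 0.05. Voom called 257 of them higher and 233 lower. The G2 and M phase list (30 genes, median 0.08) had 3 higher at an unadjusted p below 0.05 and 0 by voom, and in 13 of its genes all OA libraries lay above all 6 others (7.13% of all tested genes). The S phase list (30 genes) had 1 higher and 1 lower at an unadjusted p below 0.05 and 0 by voom. Of 24 immediate early genes (median 0.08), 6 were higher and 1 lower at an unadjusted p below 0.05, and 1 was called by voom. The RNA handling list had 18 tested genes, which were mitochondrial mRNAs, histones, Lars2, Malat1 and Neat1 (median -0.08). Of these, 2 were higher and 3 lower at an unadjusted p below 0.05, and 1 was called by voom. The ribosomal RNA genes of that list, Rn45s and Rn18s, were not found, so it says nothing of ribosomal RNA.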

How the data were processed

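Poly(A) RNA of 9 libraries was sequenced, strand-specifically per the labels' protocols. The deposited table gives 1 signal value per gene and library, a normalised count that is not whole. The submitters' processing notes name CASAVA 1.8.2, TopHat, HTSeq, DESeq2 and the build mm9, with no role for each. Low values clustered on multiples of a step, taken as 1 fragment. As 62.3% to 68.8% of values between 5 and 50 steps were whole multiples within 0.05, reads were not recovered and no count test was run. Depth is the library's total divided by its step.

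The test was limma 3.58.1 (R 4.3.3) on log2(value + 1), which compresses the fold changes of low genes. It used a variance trend on intensity, with all 3 groups in the fit. Its p-values are two-sided, with Benjamini-Hochberg adjustment over 15002 genes, and intervals are 95% intervals. The procedure was tested on simulated data. Groups were called separated when all 3 libraries of one lay beyond those of the other. The 22 lists held 513 symbols, of which 7 were not analysed here. The named genes were 26 fixed ones, up to 4 passing members of each list with the smallest adjusted p, and the 12 largest rises and 12 largest falls among named genes that passed, did not overlap and averaged at least 50 in the higher group. Members, lists, motifs and this rule were chosen with earlier results of these data known. Promoters are RefSeq windows of 250 bases before to 50 after each start, matched by symbol. Alternatives were pseudocounts of 0.5 and 5, other filters, quantile normalisation, equal totals, 2 groups alone, a replicate block, robust variances, no trend, voom on estimated fragments, and leaving out each library. Some genes counted in the lists are not reported here by name.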

Additional observations from a re-analysis of the deposited data

How the results depend on the processing

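The counts of genes called, 188 higher and 204 lower, moved by more than 1.5 times under some settings. With no filter they were 72 and 38, with no intensity trend 51 and 15, and with robust variances the lower count was 132. Leaving out single libraries gave 66 to 284 higher and 44 to 247 lower genes. The cause of these shifts was not tested. Voom gave 257 and 233, equal library totals 143 and 216, and quantile normalisation 202 and 262.

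Replicate numbers were shared between groups, but same-numbered MDI and OA_T0 libraries deviated from their group means with correlations of -0.13, -0.04 and -0.26 across genes, and no library of either group correlated best with its own number. With a replicate block 156 genes were higher and 183 lower.

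Of the 69 named genes, the 58 that passed changed direction under 0 of these settings. Dropping 1 library cannot reverse a difference between groups that do not overlap, as in 390 of the 392 passing genes. For the dropped libraries this count was therefore largely fixed in advance. Of the 11 named genes that did not pass, 5 (Cebpa, Nr1h2, Pdk4, Plin2 and Srebf1) changed sign under at least 1 setting. Among the named genes, calls were lost for 37 with no intensity trend, 31 with no filter and 15 with robust variances. When libraries were dropped, calls were lost for 26 (MDI replicate 1), 24 (MDI replicate 2), 26 (OA_T0 replicate 1) and 13 (OA_T0 replicate 2). Each other setting lost 7 or fewer. The interferon list, with 23 lower in the test reported here, had 0 calls with no filter and 0 with no intensity trend. The lists of PPAR targets, NRF2, TGF-beta and SRF, matrix, glycolysis and the respiratory chain also had 0 calls in their direction under both settings. The lists of lipid droplets, endoplasmic reticulum chaperones and chemokines had 0 with no intensity trend. Depth limits low genes most, in OA_T0 replicate 3.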

Other observations

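Genes outside the lists added to the picture, and those given here were chosen after their values were seen. Several that rose handle sterols. Gramd1b, which carries cholesterol from the plasma membrane to the endoplasmic reticulum, measured 579.7, 535 and 529.5 in MDI, 483, 491 and 461 in OA and 1069.8, 972 and 1160.2 in OA_T0, with no overlap between OA_T0 and the others (log2 difference 0.96 (SE 0.08, adjusted p = 6.45e-06)). Rnf145, a ubiquitin ligase of the sterol system, measured 2479, 2466 and 2567 in MDI, 4548, 4564 and 4924 in OA and 4212, 4911 and 4072 in OA_T0 (log2 difference 0.81 (SE 0.07, adjusted p = 6.45e-06)), and was high in both treated groups. Lrp8, a lipoprotein receptor, rose by 0.56, Tmem97, a sterol-regulated membrane protein, by 0.52, and Scarb1, the HDL receptor, by 0.42; Scarb1 did not pass without MDI replicate 1, MDI replicate 2 or OA_T0 replicate 1. Pcyt2, an enzyme of phosphatidylethanolamine synthesis, rose by 0.83. Aldh1a7, an aldehyde dehydrogenase, rose by 1.03 over MDI while its OA libraries were higher still, at 1347, 1401 and 1661 against 953, 1078 and 841 in OA_T0.

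The mitochondrial ribosomal RNAs rose, with mt-Rnr1 at 6688, 7654 and 7473 in MDI, 8191, 9731 and 8250.0 in OA and 15120.4, 12515 and 12172 in OA_T0 (log2 difference 0.86 (SE 0.09, adjusted p = 3.89e-05)) and mt-Rnr2 at a difference of 0.78 (SE 0.09, adjusted p = 0.000224). The libraries were selected for poly(A) RNA, and the mitochondrial mRNAs on the RNA handling list did not pass. Among other falls outside the lists, Grem1, a secreted BMP antagonist, measured 1137, 1028 and 1075 in MDI and 658, 677 and 621 in OA_T0 (log2 difference -0.73 (SE 0.07, adjusted p = 1.83e-05)). Has2, hyaluronan synthase, fell by a log2 difference of -0.52 (SE 0.08, adjusted p = 0.00213), Txnip, which binds thioredoxin, by -0.47 (SE 0.06, adjusted p = 0.000358), and Gda, guanine deaminase, by -0.79 (SE 0.09, adjusted p = 7.33e-05). The 3 OA libraries of Gda lay above MDI, at 2908, 2827 and 2533 against 1700.3, 1437 and 1504.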
